A study of Mus musculus with 12 samples.

Results

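Nucleolar ribosome biogenesis genes were followed across sorted mouse blood stem and progenitor cells with normal, reduced or deleted Erg. The rule that defines the members uses gene symbols alone: the numbered Nop, Nol, Utp, Rrp, Tsr and Noc families, the RNA polymerase I subunits (Polr1), and named factors such as Dkc1, Gar1, Fbl, Bop1, Gnl3 and Mphosph10. The rule found 59 of the 9984 genes that had a value. In the RefSeq annotation 88 protein-coding genes match the rule, and the other 29, among them Npm1, Ncl, Nop58, Pes1, Wdr12, Polr1b and Nol6, were not analysed here.

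Ribosomes are built in the nucleolus, where RNA polymerase I transcribes the precursor of the large ribosomal RNAs. Small nucleolar RNPs (snoRNPs) modify that precursor, with box C/D particles guiding methylation and box H/ACA particles guiding conversion of uridine to pseudouridine, while the small subunit processome and the large subunit assembly factors fold and cut it around the incoming ribosomal proteins. Blood stem cells are known for low protein synthesis compared with the progenitors they give rise to, and ERG is an ETS-family transcription factor required to maintain these stem cells.

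RNA from sorted cKit-enriched bone marrow cells was hybridised to 12 Affymetrix arrays, 3 in each of 4 groups. All samples came from male mice on a C57Bl/6 background, and 20 ng of total RNA was amplified for each. Erg -/- multipotential progenitors (MPPs) came from mice with 2 floxed Erg alleles (exon 11, coding for the DNA-binding domain) and Mx1-Cre, which is driven by an interferon-inducible promoter and acts in many blood cells. Erg flox/flox MPPs, their controls, came from mice with the same floxed alleles and no Cre. Mice of both MPP groups received 5 injections of pIpC, the agent that induces Mx1-Cre, and cells were taken 2 weeks after the first. Erg +/- haematopoietic stem cells (HSCs) came from mice with 1 Erg allele deleted in the whole animal, and their titles call them knockouts although the genotype label says Erg +/-. Erg +/+ HSCs came from mice without a deleted allele. HSCs were gated as Lineage-, Sca-1+, c-kit+, CD150+ and CD48-, and MPPs as CD150- by one label, although another label of the same MPP samples repeats the HSC gate. The labels do not say that same-group samples came from separate mice, so p-values measure the spread between arrays, which may be partly technical. Erg -/- and Erg flox/flox MPPs also differ in Mx1-Cre, and Erg flox/flox MPPs and Erg +/+ HSCs also differ in pIpC and in the floxed alleles, which cannot be told apart from the named contrast.

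Gene selection limits what these data can show. In the difference between Erg -/- MPPs and Erg +/- HSCs, 18 of 18719 probe sets had an absolute limma t of 15.9 or more, and the largest value among the rest was 2.18. By contrast, an absolute t above 2.2 was reached by 698 probe sets between Erg -/- and Erg flox/flox MPPs, by 1046 between Erg +/- and Erg +/+ HSCs, and by 3257 between Erg flox/flox MPPs and Erg +/+ HSCs. Probe sets with an intermediate or large t between Erg -/- MPPs and Erg +/- HSCs are thus almost missing among those analysed here. The gap lies in t and not in the size of the difference, since the largest absolute log2 difference among the rest was 3.19. How the analysed probe sets came to be limited is unknown. No call, test or share is therefore reported for that comparison, and whether any of the 29 genes without a value belongs to the missing range is unknown. The other comparisons are touched as well. The Erg effect in MPPs minus the Erg effect in HSCs equals the difference between Erg -/- MPPs and Erg +/- HSCs minus the difference between Erg flox/flox MPPs and Erg +/+ HSCs. With the first of these mostly small against its standard error, the other 2 are tied to each other. Of the 40 members that were higher in Erg flox/flox MPPs than in Erg +/+ HSCs, all but Imp3, Nip7 and Nol3 had an MPP effect below the HSC effect. Both quantities use the same Erg flox/flox MPP and Erg +/+ HSC arrays with opposite sign. The count therefore leans this way without any gene selection, and does not measure the selection.

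One array stood apart for these genes. Erg flox/flox MPP replicate 1 held the highest value of 22 of the 59 members (37.3%), against 11.4% of all genes, and its mean over the members was 7.90 on the log2 scale, against 7.47 and 7.56 in the other Erg flox/flox MPP arrays. Its values were also more spread over all genes, with an interquartile range of 2.625, against 2.173 and 2.139 in the other Erg flox/flox MPP arrays. Erg +/+ HSC replicate 1 had a wider one, 2.714. The members' median on Erg flox/flox MPP replicate 1 was 7.78, against 5.79 for all genes, and the all-gene share is not matched for level. The part of the wider spread in the members' values was not tested. The main summaries over the members are also given without that Erg flox/flox MPP array. Of 14 listed HSC-associated markers 5 had a value. All 5 are among the 18 probe sets with a very large t described above, so their levels are only a description. They averaged 6.23 to 6.45 in Erg -/- MPP arrays, 6.86 to 6.99 in Erg flox/flox MPP arrays, 9.80 to 9.90 in Erg +/- HSC arrays and 9.64 to 9.78 in Erg +/+ HSC arrays. Erg itself and the surface proteins used in the gates were not analysed here.

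**Figure D1:**
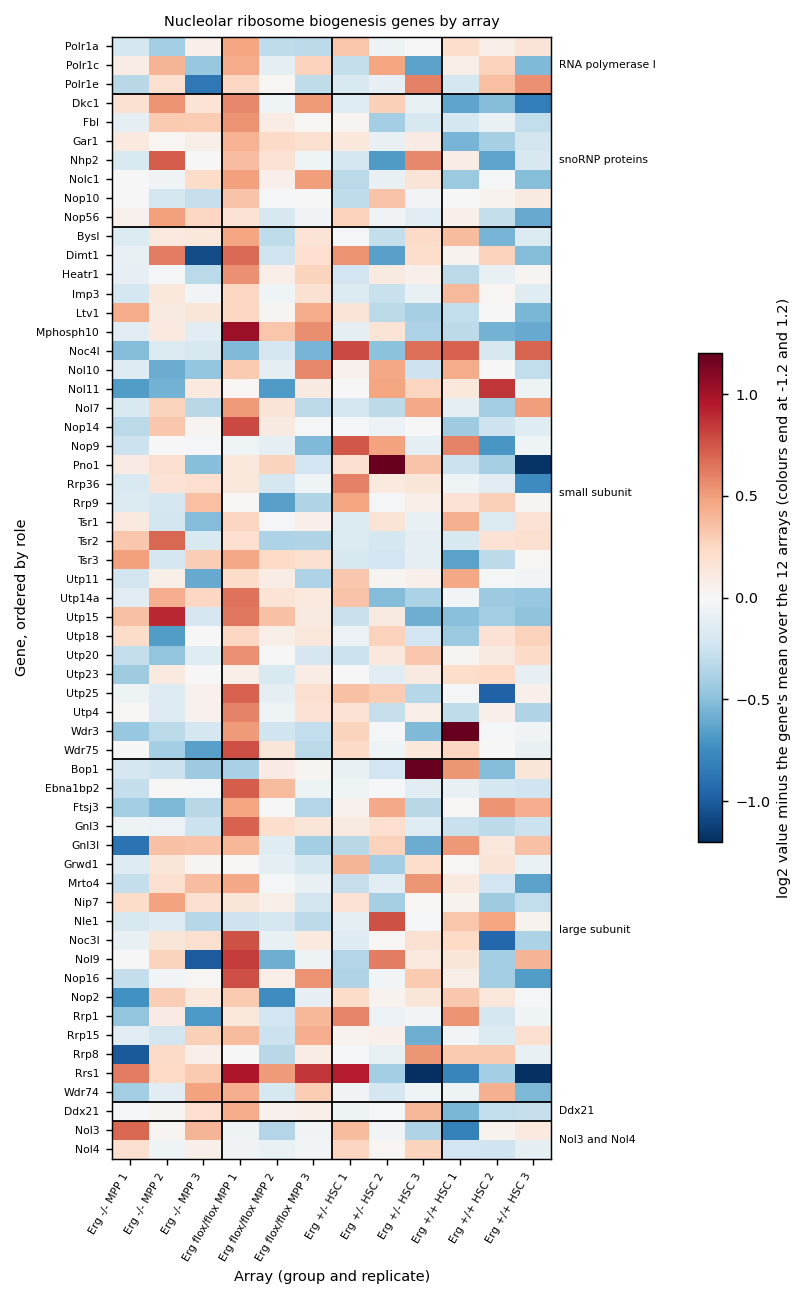
Heat map of the 59 members (rows, ordered by role) on the 12 arrays (columns, 3 for each group), coloured by log2 value minus the gene's mean over all arrays. Erg flox/flox MPP replicate 1 is the reddest column and holds the highest value of 22 members.

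Across the 4 groups the members most often had their highest mean in Erg flox/flox MPPs. The highest group mean lay there for 31 of 59 members (52.5%), against 29.8% of all genes, and it lay in Erg -/- MPPs for 5 members (8.47%), against 31.1% of all genes. With Erg flox/flox MPP replicate 1 left out, Erg flox/flox MPPs had the highest mean for 17 members (28.8%), against 34.3% of all genes, and Erg -/- MPPs for 12 (20.3%), against 25.3%. The lowest group mean lay in Erg +/+ HSCs for 27 members (45.8%), against 39.1% of all genes, and in Erg -/- MPPs for 20 members (33.9%), against 21.2%. Without Erg flox/flox MPP replicate 1 it lay in Erg +/+ HSCs for 27 members (45.8%), against 38.7% of all genes. It then lay in Erg -/- MPPs for 18 (30.5%), against 18.4%. The members' mean level was 7.49 ± 0.09 in Erg -/- MPPs, 7.65 ± 0.23 in Erg flox/flox MPPs, 7.56 ± 0.04 in Erg +/- HSCs and 7.44 ± 0.09 in Erg +/+ HSCs (log2, SD over n = 3 arrays each). The array means of the 4 groups overlapped. In bulk RNA a lower level can mean fewer cells of a type or less RNA per cell, and the arrays cannot tell these apart.

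Between control populations, Erg flox/flox MPPs had higher levels of Mphosph10 and Dkc1 than Erg +/+ HSCs, and no other member passed the test. The test was limma's moderated test on log2 values with Benjamini-Hochberg adjustment over all 9984 genes at 0.05, and 0.651% of genes were called higher and 0.631% lower. At an unadjusted p under 0.05, 17 members were higher and 3 lower, against 14.4% and 7.91% of all genes. Levels of the 2 groups did not overlap for 18 members that were higher and 3 that were lower, against 18.5% and 8.54% of all genes. The members' median log2 difference was 0.21, with 40 of 59 positive (67.8%), against a median of 0.12 and 62.4% positive over all genes. Without Erg flox/flox MPP replicate 1 the members' median was 0.10 with 35 positive (59.3%), against 0.12 and 60.4% over all genes. In that fit 10 members were higher and 2 lower at an unadjusted p under 0.05 (16.9% and 3.39%), against 16.5% and 7.97% of all genes. The groups then did not overlap for 18 members that were higher and 12 that were lower, against 30.5% and 14.5% of all genes.

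Most members had lower values in Erg -/- than in Erg flox/flox MPPs, but none passed the test. The number of lower members changed when single arrays were left out. It also fell when quantile normalization was repeated on all arrays, as given with the processing alternatives. The median log2 difference of Erg -/- minus Erg flox/flox MPPs was -0.19, with 46 of 59 members negative and 22% positive. Over all genes the median was -0.004, with 49.4% positive. No member was called by limma, where 0% of all genes were called higher and 0.0801% lower. At an unadjusted p under 0.05, 0 members were higher and 6 lower (Mphosph10, Gnl3, Nol10, Heatr1, Ebna1bp2 and Nop16), against 1.21% and 3.58% of all genes. The groups did not overlap for 2 members above and 6 below, against 4.36% and 6.1% of all genes. Without Erg flox/flox MPP replicate 1 the median was -0.06, and 24 members were positive (40.7%, against 46.4% of all genes). The unadjusted counts were then 2 higher and 1 lower (3.39% and 1.69%), against 1.24% and 2.25% of all genes. The groups then did not overlap for 5 members above and 7 below, against 8.02% and 11.1% of all genes. Without Erg -/- MPP replicate 1, 21 members were positive.

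Erg heterozygosity in HSCs gave a small difference of the opposite sign, again with no member past the test. The members' median log2 difference of Erg +/- minus Erg +/+ HSCs was 0.09, with 38 of 59 positive (64.4%). Over all genes the median was 0.02, with 53.8% positive. No member was called by limma, where 0.01% of genes were called higher and 0.01% lower. At an unadjusted p under 0.05, 6 members were higher (Pno1, Dkc1, Gar1, Rrp36, Ddx21 and Nol4) and 0 lower, against 2.73% and 3.59% of all genes. Groups did not overlap for 8 members above and 0 below, against 6.06% and 4.38% of all genes. Leaving out each HSC array of the comparison in turn gave medians between 0.05 and 0.16. Erythroid markers were higher and stromal and endothelial markers lower in Erg +/- than in Erg +/+ HSC arrays, as given with the other marker lists, and their part in the members' difference was not tested.

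**Figure D2:**
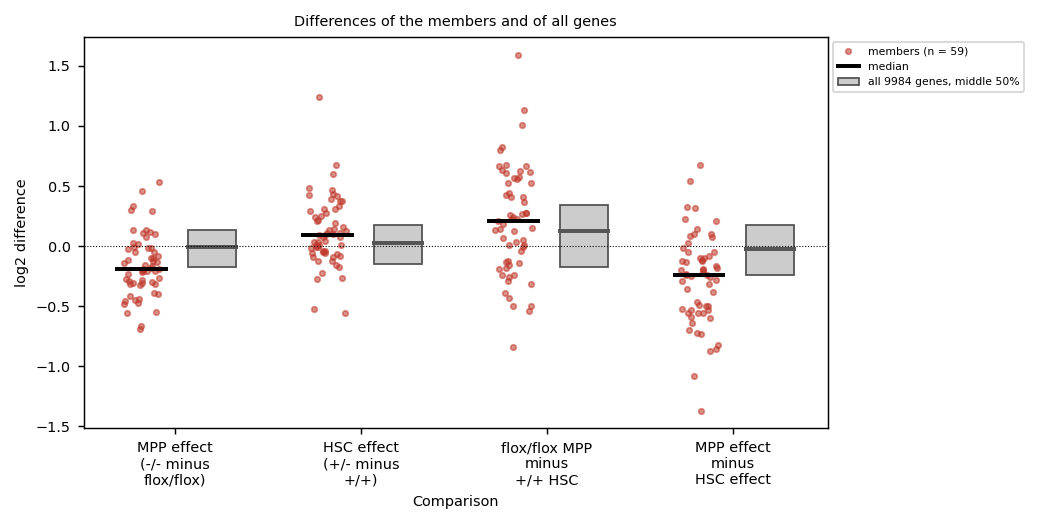
Log2 differences of the 59 members (points, with a black line at their median) beside the middle 50% of all 9984 genes (grey box, with a line at the median), for 4 comparisons along the horizontal axis. The members' medians were -0.19, 0.09, 0.21 and -0.24, and the points spread widely around each.

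The RNA polymerase I subunits showed no common change. Of 8 listed subunits 3 had a value under a Polr1 symbol: Polr1a, the largest catalytic subunit, Polr1c, which is shared with RNA polymerase III, and Polr1e. The subunits Polr1f, Polr1g and Polr1h had values under their older symbols Twistnb, Cd3eap and Znrd1, which lie outside the symbol rule. Polr1a read 7.07, 6.87 and 7.34 in Erg -/- MPPs, 7.76, 6.98 and 6.97 in Erg flox/flox MPPs, 7.62, 7.22 and 7.27 in Erg +/- HSCs, and 7.49, 7.35 and 7.43 in Erg +/+ HSCs. The groups overlapped in each of the 3 comparisons, and the MPP effect was -0.14 ± 0.22 (SE). For the 3 subunits among the members the MPP effects ran between -0.32 and -0.14 and the HSC effects between -0.13 and -0.05. None had an unadjusted p under 0.05 in the limma fit. For Twistnb, Cd3eap and Znrd1 the MPP effects were -0.15, 0.09 and -0.39. Their HSC effects were 0.14, -0.20 and -0.27.

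All 7 measured snoRNP proteins of 8 listed had a positive difference in Erg flox/flox MPPs over Erg +/+ HSCs, against 62.4% of all genes, with a median of 0.41. Dkc1 was the one that passed the test. Of the 7, 6 were positive without Erg flox/flox MPP replicate 1, and the median was then 0.31. Dkc1 encodes dyskerin, the pseudouridine synthase of the H/ACA particles, which is also part of telomerase. Dkc1 read 9.00, 9.35 and 8.97 in Erg -/- MPPs, 9.39, 8.76 and 9.32 in Erg flox/flox MPPs, 8.66, 9.09 and 8.72 in Erg +/- HSCs, and 8.18, 8.28 and 7.98 in Erg +/+ HSCs. The Erg +/+ HSC arrays were the 3 lowest of all 12, and the MPP groups overlapped each other.

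Dkc1 was 2.01-fold higher in Erg flox/flox MPPs than in Erg +/+ HSCs (log2 difference 1.01 ± 0.21 SE, limma adjusted p = 0.0362). That call was lost when any of these single arrays was left out: the limma adjusted p was 0.0687 without Erg flox/flox MPP replicate 1, 0.116 without Erg flox/flox MPP replicate 3, and 0.0736, 0.0528 and 0.0868 without Erg +/+ HSC replicates 1, 2 and 3. Leaving out each array of these groups in turn gave log2 differences between 0.89 and 1.21. Dkc1 differed by 0.68 ± 0.21 between Erg +/- and Erg +/+ HSCs (limma adjusted p = 0.559) and by -0.05 ± 0.21 between Erg -/- and Erg flox/flox MPPs.

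Gar1, a core H/ACA protein that binds dyskerin, had the same order with a smaller range. It read 8.23, 8.14 and 8.18 in Erg -/- MPPs, 8.53, 8.35 and 8.30 in Erg flox/flox MPPs, 8.24, 8.02 and 8.21 in Erg +/- HSCs, and 7.56, 7.72 and 7.89 in Erg +/+ HSCs. Erg +/+ HSCs lay below every other array and Erg flox/flox MPPs above every other array. Erg -/- MPPs and Erg +/- HSCs overlapped, which the gene selection described above favours, so that overlap is given no weight. The difference of Erg flox/flox MPPs over Erg +/+ HSCs, 0.67 ± 0.15, missed the threshold (limma adjusted p = 0.0536), as did the HSC effect of 0.43 ± 0.15 (adjusted p = 0.740) and the MPP effect of -0.21 ± 0.15.

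For the other H/ACA core proteins, Nhp2 and Nop10, the groups overlapped in each of the 3 comparisons. Their population differences were 0.41 ± 0.32 and 0.05 ± 0.19. That of Nhp2 was thus as large as the snoRNP proteins' median, with a wide error. Nolc1, a chaperone of snoRNPs that both particle classes use, read 8.54, 8.11 and 8.56 in Erg flox/flox MPPs, against 7.61, 8.03 and 7.55 in Erg +/+ HSCs. These groups did not overlap, and the difference of 0.68 ± 0.20 had a limma adjusted p of 0.103.

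Among the box C/D proteins, Fbl, the methyltransferase fibrillarin, read 10.56, 10.11 and 10.03 in Erg flox/flox MPPs, against 9.80, 9.94 and 9.72 in Erg +/+ HSCs. The groups did not overlap, with a difference of 0.41 ± 0.20 (unadjusted p = 0.0565 in the limma fit). A second, dimmer Fbl probe set gave 0.19. Nop56, a box C/D core protein, had positive differences in all 3 comparisons, 0.29 ± 0.21 for the MPP effect, 0.31 ± 0.21 for the HSC effect and 0.25 ± 0.21 between control populations, with overlapping groups in each.

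In the small subunit class, 28 of 41 listed genes had a value, and Mphosph10 was the one that passed the test between control populations. MPHOSPH10 is a U3 snoRNP protein of the small subunit processome that works with IMP3 and IMP4. Mphosph10 read 7.25, 7.48 and 7.23 in Erg -/- MPPs, 8.40, 7.70 and 7.93 in Erg flox/flox MPPs, 7.26, 7.53 and 7.00 in Erg +/- HSCs, and 7.06, 6.80 and 6.77 in Erg +/+ HSCs. The 3 Erg flox/flox MPP arrays were the highest of all 12.

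Mphosph10 was 2.2-fold higher in Erg flox/flox MPPs than in Erg +/+ HSCs (log2 difference 1.13 ± 0.21 SE, limma adjusted p = 0.0245). Without Erg flox/flox MPP replicate 1 the difference was 0.94 (adjusted p = 0.0493), and the call was lost without Erg flox/flox MPP replicate 3 (adjusted p = 0.0672) and without Erg +/+ HSC replicate 2 or 3 (0.0521 and 0.0623). The MPP effect of -0.69 ± 0.21 had the smallest unadjusted p of the members in that comparison (0.00567, limma adjusted p = 0.735), with Erg -/- below Erg flox/flox MPPs on every array. The HSC effect was 0.39 ± 0.21. IMP3's gene, by contrast, was among the 3 members that varied least over the 12 arrays, and read between 8.92 and 9.57.

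Pno1, which encodes a factor needed late in 40S maturation, had the largest HSC effect of the members. It read 6.78, 6.87 and 6.17 in Erg -/- MPPs, 6.81, 6.95 and 6.45 in Erg flox/flox MPPs, 6.87, 8.04 and 7.02 in Erg +/- HSCs, and 6.43, 6.28 and 5.51 in Erg +/+ HSCs. Erg +/- and Erg +/+ HSCs did not overlap, while the MPP groups did. The HSC effect was 1.24 ± 0.33 (unadjusted p = 0.00267, limma adjusted p = 0.522), and it was 0.87 without Erg +/- HSC replicate 2, the highest array. Rrp36, whose yeast counterpart acts in early cleavages of the precursor, also had separate HSC groups, with 7.18, 6.70 and 6.72 in Erg +/- HSCs, against 6.52, 6.44 and 5.82 in Erg +/+ HSCs (0.60 ± 0.22, limma adjusted p = 0.740).

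Besides Mphosph10, Nol10 and Heatr1 had lower values on every Erg -/- MPP array within the small subunit class. Nol10, related to the yeast processome factor Enp2, read 6.19, 5.75 and 5.88 in Erg -/- MPPs, against 6.66, 6.24 and 6.92 in Erg flox/flox MPPs. Heatr1, the counterpart of yeast Utp10, read 8.27, 8.36 and 8.04 in Erg -/- MPPs, against 8.92, 8.45 and 8.64 in Erg flox/flox MPPs. For both genes every Erg -/- array lay below every Erg flox/flox array, by -0.66 ± 0.25 for Nol10 and -0.44 ± 0.18 for Heatr1, and both had a limma adjusted p of 0.998. Tsr2, an escort protein for a small subunit ribosomal protein, had the largest positive MPP effect of this class, with 7.66, 8.03 and 7.16 in Erg -/- MPPs, against 7.54, 6.96 and 6.98 in Erg flox/flox MPPs. These groups overlapped, with a difference of 0.46 ± 0.23.

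Other members of the class were split between directions in the control populations. Utp15, Utp14a, Nop14, Ltv1 and Tsr3 were higher on every Erg flox/flox MPP array than on any Erg +/+ HSC array, by 0.52 to 0.83. Noc4l and Rrp9 lay lower on every Erg flox/flox MPP array. Noc4l, which forms a processome module with NOP14, read 6.83, 7.17 and 6.81 in Erg flox/flox MPPs, against 8.08, 7.18 and 8.07 in Erg +/+ HSCs. The gap between the closest arrays of Noc4l was small, because Erg +/+ HSC replicate 2 was far below the other arrays of its group, and the difference was -0.84 ± 0.33 (limma adjusted p = 0.17). Rrp9, a U3 snoRNP protein, differed by -0.50 ± 0.22. Wdr3 differed by -0.44 ± 0.35 and rested on 1 array, since the difference was 0.03 without Erg +/+ HSC replicate 1.

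**Figure D3:**
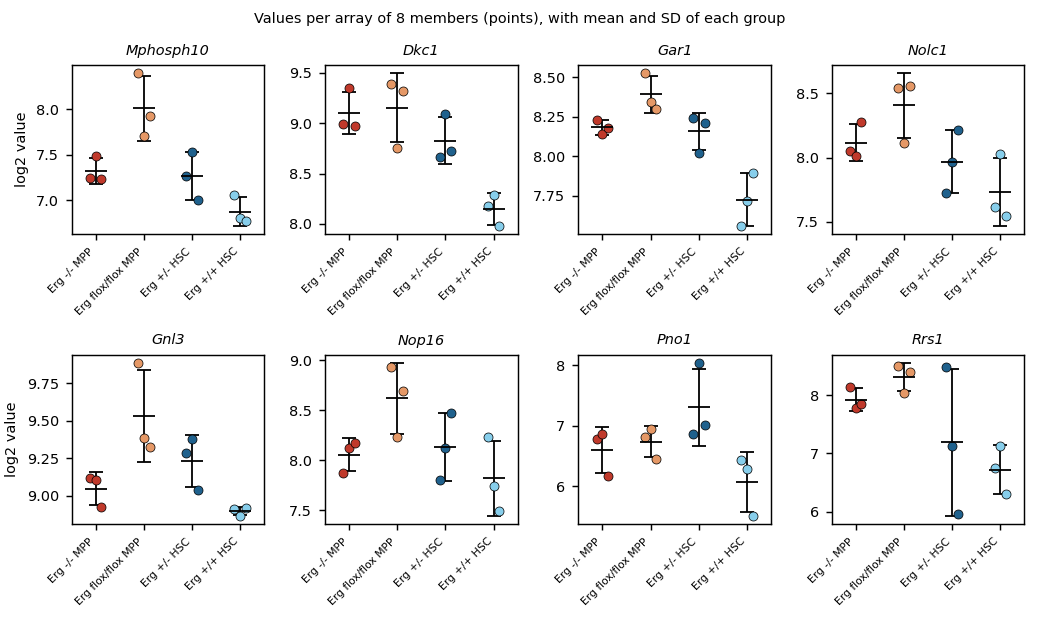
Log2 values of 8 members on each array (points) with the mean and SD of each group (n = 3), for Erg -/- MPPs, Erg flox/flox MPPs, Erg +/- HSCs and Erg +/+ HSCs from left to right, each panel with its own vertical axis. Erg flox/flox MPPs hold the 3 highest arrays for Mphosph10 and Gar1, and Erg +/+ HSCs the 3 lowest for Dkc1 and Gar1.

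The large subunit factors gave no call among 18 measured of 26 listed genes. Gnl3, the nucleolar GTPase nucleostemin, read 9.12, 9.11 and 8.92 in Erg -/- MPPs, 9.89, 9.39 and 9.33 in Erg flox/flox MPPs, 9.28, 9.38 and 9.04 in Erg +/- HSCs, and 8.91, 8.87 and 8.92 in Erg +/+ HSCs. Erg flox/flox MPPs lay above both Erg -/- MPPs and Erg +/+ HSCs on every array, and Erg +/- HSCs lay above Erg +/+ HSCs. The MPP effect was -0.48 ± 0.18, the HSC effect 0.33 ± 0.18 and the population difference 0.64 ± 0.18, with limma adjusted p-values of 0.998, 0.851 and 0.0941. Without Erg flox/flox MPP replicate 1 the MPP effect was -0.31.

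Nop16 and Ebna1bp2, both pre-60S assembly factors, had a like order. Nop16 read 7.87, 8.12 and 8.17 in Erg -/- MPPs, against 8.93, 8.23 and 8.69 in Erg flox/flox MPPs, a difference of -0.56 ± 0.25 without overlap. Its population difference was 0.80 ± 0.25 (limma adjusted p = 0.110). Ebna1bp2 had an MPP effect of -0.44 ± 0.19 with overlapping groups and a population difference of 0.53 ± 0.19 without overlap.

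Rrs1, which takes part in placing the 5S RNP in the large subunit, was the most variable member, with an SD of 0.872 over the 12 arrays. It read 8.15, 7.78 and 7.85 in Erg -/- MPPs, 8.50, 8.04 and 8.40 in Erg flox/flox MPPs, 8.48, 7.13 and 5.96 in Erg +/- HSCs, and 6.74, 7.13 and 6.29 in Erg +/+ HSCs. The 3 Erg +/- HSC arrays were far apart, with the lowest below every Erg +/+ HSC array and the highest within the range of Erg flox/flox MPPs, and both MPP groups lay above every Erg +/+ HSC array. The population difference was 1.59 ± 0.47 (limma adjusted p = 0.103), and the HSC effect changed sign to -0.18 without Erg +/- HSC replicate 1.

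Other large subunit factors ran the other way or hardly differed. Nle1, which works with the remodelling ATPase MDN1 on pre-60S particles, read 6.57, 6.62 and 6.50 in Erg flox/flox MPPs, against 7.15, 7.29 and 6.86 in Erg +/+ HSCs (-0.54 ± 0.22, limma adjusted p = 0.19). These groups did not overlap. Bop1, a member of the PeBoW complex, differed by -0.14 ± 0.37 between control populations, and its HSC effect of 0.28 ± 0.37 rested on single arrays. That effect was -0.21 without Erg +/- HSC replicate 3, at 7.64, and was also lost without Erg +/+ HSC replicate 2, at 5.81. Nop2, a methyltransferase of the large subunit RNA, had an MPP effect of 0.08 ± 0.29 and a population difference of -0.32 ± 0.29. Nip7 lay higher on every Erg -/- MPP array (7.55, 7.81 and 7.52) than on any Erg flox/flox MPP array (7.47, 7.40 and 7.10), by 0.30 ± 0.20, and Gnl3l had the lowest HSC effect of the members, -0.55 ± 0.34 with overlapping groups.

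Of the 6 listed nucleolar chaperones and regulators only Ddx21, an RNA helicase that couples RNA polymerase I transcription to processing, had a value. Ddx21 read 8.42, 8.47 and 8.65 in Erg -/- MPPs, 8.88, 8.49 and 8.51 in Erg flox/flox MPPs, 8.38, 8.43 and 8.84 in Erg +/- HSCs, and 7.89, 8.15 and 8.17 in Erg +/+ HSCs. The Erg +/+ HSC arrays were the 3 lowest of the 12, and the MPP groups overlapped. The HSC effect was 0.48 ± 0.18 (limma adjusted p = 0.755) and the population difference 0.56 ± 0.18 (adjusted p = 0.12).

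The symbol rule also took in Nol3 and Nol4, which have no established part in making ribosomes. Nol3, an inhibitor of apoptosis with a CARD domain, lay higher on all Erg -/- MPP arrays (6.19, 5.52 and 5.91) than on the Erg flox/flox MPP arrays (5.43, 5.15 and 5.45), by 0.53 ± 0.28. Nol4 varied least of all members, with an SD of 0.169 over the 12 arrays, followed by Utp23 and Imp3.

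The effects of Erg in the 2 populations differed in sign for many members, and no difference of effects passed the test. The MPP effect minus the HSC effect had a median of -0.24, with 47 of 59 members negative and 20.3% positive. Over all genes the median was -0.03, with 46.1% positive. By limma 0 members were called, where 0% of all genes were called higher and 0.02% lower. At an unadjusted p under 0.05, 0 members were higher and 7 lower, against 1.43% and 2.44% of all genes. The smallest unadjusted p-values belonged to Mphosph10 (-1.08 ± 0.29, limma adjusted p = 0.825), Gnl3 (-0.82 ± 0.25, adjusted p = 0.971) and Gar1 (-0.64 ± 0.21, adjusted p = 1). Without Erg flox/flox MPP replicate 1 the median was -0.10, and 21 members were positive (35.6%, against 44.4% of all genes). In that fit 1 member was higher and 4 were lower at an unadjusted p under 0.05 (1.69% and 6.78%), against 1.61% and 2.3% of all genes. Without Erg -/- MPP replicate 1, 19 members were positive. A higher HSC value with Erg +/- together with a lower MPP value with Erg -/- was found for 29 of 59 members (49.2%), against 24.9% of all genes, and without Erg flox/flox MPP replicate 1 for 20 (33.9%), against 27.9%. The gene selection described above bears on this count, since it ties the difference of effects to the control population difference, and its part in the count was not tested.

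**Figure D4:**
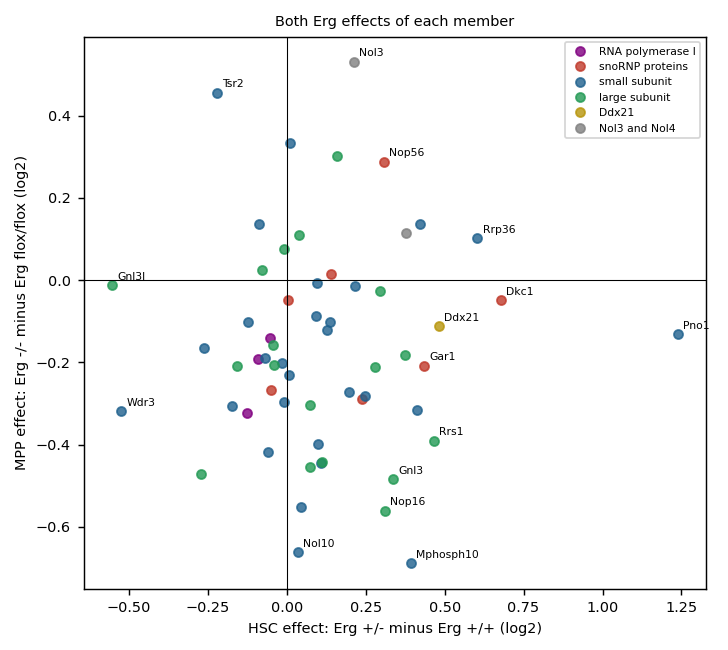
HSC effect (Erg +/- minus Erg +/+, log2, horizontal) and MPP effect (Erg -/- minus Erg flox/flox, log2, vertical) of each of the 59 members, coloured by role. The lower right part, with a positive HSC effect and a negative MPP effect, holds 29 members, Mphosph10 and Gnl3 among them.

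The promoters of 4 members are shown because Mphosph10 and Dkc1 passed the test and Gar1 and Nolc1 are snoRNP proteins that act with dyskerin. Each is the 250 bases before the RefSeq gene start on the gene's own strand (GRCm38.p6), 5′ to 3′, with the letters of the motif CCGGAAG, a core that ETS-family factors recognise, in capitals in either orientation.
Mphosph10: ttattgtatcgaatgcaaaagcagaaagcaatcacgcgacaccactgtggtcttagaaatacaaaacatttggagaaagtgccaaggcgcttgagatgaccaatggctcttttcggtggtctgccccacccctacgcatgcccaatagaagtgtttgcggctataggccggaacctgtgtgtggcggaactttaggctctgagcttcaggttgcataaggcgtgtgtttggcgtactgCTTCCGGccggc
Dkc1: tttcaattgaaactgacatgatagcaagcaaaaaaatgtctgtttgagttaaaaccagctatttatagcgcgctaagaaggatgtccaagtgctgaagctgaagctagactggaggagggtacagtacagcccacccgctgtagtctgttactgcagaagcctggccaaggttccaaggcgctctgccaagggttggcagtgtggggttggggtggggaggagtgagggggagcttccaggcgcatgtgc
Gar1: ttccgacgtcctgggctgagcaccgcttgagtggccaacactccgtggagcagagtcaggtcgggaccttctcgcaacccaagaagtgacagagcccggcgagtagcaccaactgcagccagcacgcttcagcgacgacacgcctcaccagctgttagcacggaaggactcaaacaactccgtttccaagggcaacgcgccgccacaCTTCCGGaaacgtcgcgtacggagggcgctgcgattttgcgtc
Nolc1: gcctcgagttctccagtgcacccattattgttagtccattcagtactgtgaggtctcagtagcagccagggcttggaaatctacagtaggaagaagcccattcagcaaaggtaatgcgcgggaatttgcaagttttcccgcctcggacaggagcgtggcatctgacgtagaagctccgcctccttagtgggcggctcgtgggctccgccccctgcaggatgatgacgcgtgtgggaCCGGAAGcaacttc

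These windows lie at chr7:64392237-64392486 (minus strand) for Mphosph10, chrX:75095604-75095853 (plus strand) for Dkc1, chr3:129831397-129831646 (minus strand) for Gar1 and chr19:46075597-46075846 (plus strand) for Nolc1. The match spans bases -12 to -6 from the start in Mphosph10, -43 to -37 in Gar1 and -14 to -8 in Nolc1, and the Dkc1 window has none. Of the 59 members 50 had a promoter in the RefSeq table, and CCGGAAG occurred on either strand in 16 of them (32%), against 12.1% of the 7756 measured genes with a promoter and 7.83% of all 27025 promoters. The E-box CACGTG, a site of the MYC family among others, occurred in 4 members' windows (8%), against 8.75% of measured genes and 6.86% of all promoters. The 2 motifs cannot overlap each other. A match describes letters in the window and is not evidence of binding.

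Ribosome biogenesis genes outside the symbol rule had median differences close to those of the members. Of 75 other factors listed, 50 had a value, and limma called 0 in each of the 4 comparisons reported here. Their median log2 difference was -0.19 for the MPP effect, 0.09 for the HSC effect, 0.15 between control populations and -0.28 for the difference of effects. The medians resting on Erg flox/flox MPPs became, without replicate 1 of that group, -0.05 for the MPP effect, 0.03 between control populations and -0.16 for the difference of effects. At an unadjusted p under 0.05, 0 were higher and 4 lower for the MPP effect, 4 higher and 0 lower for the HSC effect, and 10 higher and 2 lower between control populations. Their mean level per array was 7.39 to 7.44 in Erg -/- MPPs, 7.41 to 7.84 in Erg flox/flox MPPs, 7.48 to 7.57 in Erg +/- HSCs and 7.45 to 7.48 in Erg +/+ HSCs, with Erg flox/flox MPP replicate 1 again the highest. The list of RNA polymerase I transcription factors (9 of 13 had a value) also holds the subunits Twistnb, Cd3eap and Znrd1. That list and the RNA exosome (7 of 15) also gave 0 calls. The 7 exosome genes all had a negative HSC effect, with a median of -0.32.

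Markers of other cells and of cell division differed between the same groups. The 6 measured of 9 listed B cell markers averaged 5.05 to 5.40 in Erg -/- MPP arrays, 6.50 to 7.00 in Erg flox/flox MPP arrays, 4.97 to 5.36 in Erg +/- HSC arrays and 4.91 to 5.52 in Erg +/+ HSC arrays. Limma called 2 of the 6 lower in Erg -/- MPPs than in Erg flox/flox MPPs and 3 of the 6 higher in Erg flox/flox MPPs than in Erg +/+ HSCs. The 3 measured of 12 genes listed for granulocytes and macrophages averaged 5.55 to 5.93 in Erg -/- MPP arrays, against 7.01 to 7.53 in Erg flox/flox MPP arrays. That gap came from Nkg7 (MPP effect -3.05, limma adjusted p = 0.0274) and Cst7 (-1.65), which are not particular to these cells. Cebpe ran the other way (0.26). The 3 measured of 6 mast cell and basophil markers averaged 4.40 to 4.90 in Erg -/- MPP arrays, 5.56 to 6.71 in Erg flox/flox MPP arrays, 4.37 to 4.55 in Erg +/- HSC arrays and 4.32 to 4.38 in Erg +/+ HSC arrays. Of these Mcpt8, a basophil protease, was called lower in Erg -/- than in Erg flox/flox MPPs (-3.54, limma adjusted p = 0.0029).

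Erythroid markers and stromal and endothelial markers differed between the HSC groups. The 7 measured of 12 erythroid markers averaged 6.48 to 7.20 in Erg -/- MPP arrays, 6.07 to 6.60 in Erg flox/flox MPP arrays, 6.76 to 7.01 in Erg +/- HSC arrays and 5.75 to 6.17 in Erg +/+ HSC arrays. All 7 had a positive HSC effect, with a median of 0.97, and limma called 0 of them. The 5 measured of 9 stromal and endothelial markers averaged 5.58 to 5.79 in Erg +/- HSC arrays, against 6.43 to 7.15 in Erg +/+ HSC arrays. All 5 had a negative HSC effect, with a median of -0.67, and limma called 1 of them, Sparc, a matrix-associated protein (-2.08, adjusted p = 0.0401). Proliferation markers (6 measured of 26) averaged 6.67 to 6.69 in Erg -/- MPP arrays, 6.73 to 7.28 in Erg flox/flox MPP arrays, 5.74 to 7.15 in Erg +/- HSC arrays and 6.01 to 6.60 in Erg +/+ HSC arrays. The MPP effects of these markers had a median of -0.20, with 1 of 6 positive, against 49.4% of all genes, and limma called 0 of them. Their HSC effects had a median of 0.025, with 3 of 6 positive. Between control populations 5 of 6 were higher in Erg flox/flox MPPs, against 62.4% of all genes. Limma called 1 of them higher there, Plk1 (2.24, adjusted p = 0.0375). The part of these differences in the members' levels was not tested.

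**Figure D5:**
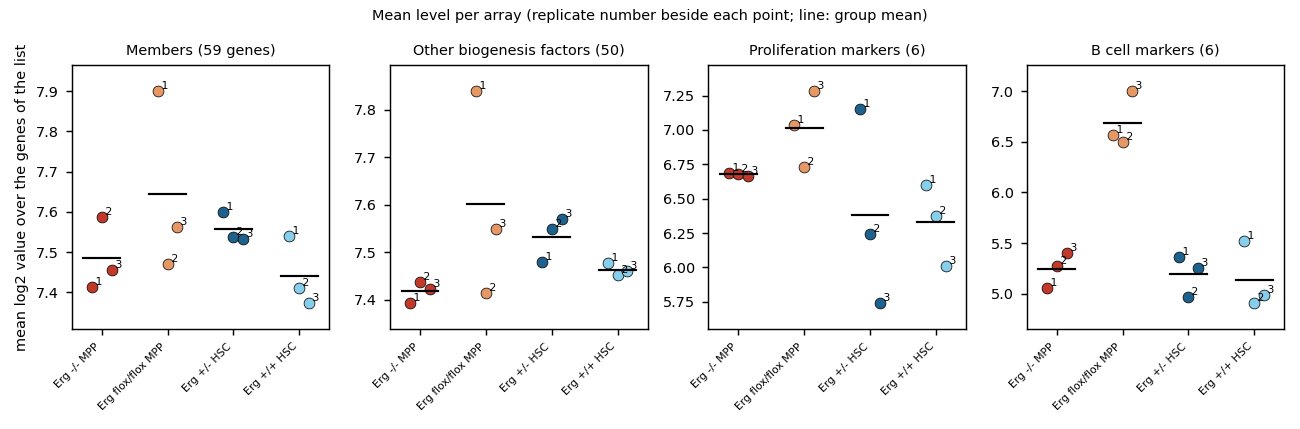
Mean log2 level per array over the 59 members, 50 other biogenesis factors, 6 proliferation markers and 6 B cell markers, for Erg -/- MPPs, Erg flox/flox MPPs, Erg +/- HSCs and Erg +/+ HSCs from left to right (points with replicate numbers, line at the group mean, vertical axes not shared). Replicate 1 of Erg flox/flox MPPs is the highest array for members (7.90) and other factors (7.84), and B cell markers are highest on all 3 Erg flox/flox MPP arrays.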

How the data were processed

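The deposited values were log2 expression per probe set, made by the authors with RMA and the affy package, per the submitters' processing notes (versions not given in the sources used here). Probe sets were named through the platform annotation: of 18719, 10657 had 1 symbol, 523 had several and 7539 were not listed. The probe set with the highest mean stood for each of 9984 genes, 364 of which had several. A group-means model over all 12 arrays was fitted with limma 3.58.1 in R 4.3.3 (8 residual and 4.35 prior degrees of freedom), two-sided, with Benjamini-Hochberg adjustment over all genes. The procedure was tested on simulated data. Errors after ± on differences are standard errors from this fit, and their precision is limited by 3 arrays a group.

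The rule for the members uses no measured value, but it and the gene lists were chosen with earlier results of these data known. Genes named are members past the test, the 3 with the smallest p per comparison and direction, the 3 with the highest and lowest SD, and fixed textbook members. Nop16, Ebna1bp2, Rrp36, Nop14, Tsr3, Utp14a, Nop10, Nhp2, Polr1c and Polr1e were named after their values were seen. Alternatives for single members were summarised only where the difference was at least 0.2, a limit set after seeing results. Because the analysed probe sets are truncated in the t of the difference between Erg -/- MPPs and Erg +/- HSCs, its planned test is given no weight. Adjusted p-values elsewhere also refer to these probe sets. Protein sequences were not used here.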

Additional observations from a re-analysis of the deposited data

How the results depend on the processing

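Alternatives were a replicate block, a filter at the 25th percentile of mean level, means of probe sets, repeated quantile normalization, median centring, a trended and robust fit, array weights, only the arrays compared, and leaving out each array. Leaving out Erg flox/flox MPP replicate 1 and Erg +/+ HSC replicate 1 together was added after seeing the data. No member was called for the MPP effect, the HSC effect or the difference of effects under any of these. The 2 members called between control populations became 1 (Mphosph10) with array weights, 0 with both added arrays out, and between 0 and 2 with 1 array left out. Mphosph10's adjusted p ran from 0.00394 to 0.0678 and Dkc1's from 0.0261 to 0.124. With the replicate number as a block, 0 members were called there (Mphosph10 adjusted p = 0.062). With only the arrays compared, neither Mphosph10 nor Dkc1 stayed called and 1 other member was called, Rrs1 (adjusted p = 0.0328), named after its value was seen. The labels do not say whether same-numbered arrays are paired. Within each population the deviations of same-numbered arrays correlated between -0.0852 and 0.0862. Pairs of an HSC and an MPP array were not examined, so these values cannot decide whether the arrays are paired. The block made no other change to the counts of members called.

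The 13 members with a positive MPP effect became 23 with repeated quantile normalization (median -0.053), 24 with both added arrays out, and between 12 and 24 with 1 array left out. For the difference of effects the 12 positive members became 20 with both added arrays out and between 9 and 21 with 1 left out. Over all genes and alternatives, calls between control populations ran from 47 to 174 against 128, for the MPP effect from 4 to 9 against 8, for the HSC effect from 0 to 8 against 2, and for the difference of effects from 0 to 4 against 2. Members at an unadjusted p under 0.05 between control populations ran from 7 to 19 against 17 higher and from 0 to 3 against 3 lower. Those lower in Erg -/- MPPs ran from 1 to 6 against 6, and those with a lower MPP than HSC effect from 4 to 10 against 7. Among named members, leaving out 1 array moved the HSC effect between -0.085 and 0.388 for Nol3 (-0.085 also with both added arrays out), between -0.212 and 0.559 for Bop1 (-0.007 without Erg +/+ HSC replicate 2), and between -0.181 and 1.082 for Rrs1. The low ends came without Erg +/+ HSC replicate 1, Erg +/- HSC replicate 3 and Erg +/- HSC replicate 1. Wdr3's population difference lay between -0.694 and 0.025, positive without Erg +/+ HSC replicate 1. In the truncated difference between Erg -/- MPPs and Erg +/- HSCs, Nhp2 lay between -0.004 and 0.623 and Nop2 between -0.434 and 0.077. The cause of these changes was not tested beyond the smaller number of arrays.

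The main limits are 3 arrays a group, 1 high Erg flox/flox MPP array, and the truncation of the analysed probe sets, under which the 59 members cannot be taken as a full account of this gene class.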
